A study of Drosophila sechellia x Drosophila simulans with 8 samples.

Results

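The odorant-binding protein family was described in oenocytes and fat body of hybrid flies. Its members here are all genes of the deposited gene table whose symbol begins with Obp and a digit, except Obp99a, which makes 46 of 14176 genes. The rule uses only gene names, though the members were chosen with earlier results of these data known. All libraries came from F1 hybrids of D. sechellia and D. simulans aged 10 days, so that every group carries both species' genomes. The direction of the cross (the species of the mother) is not in the labels. Oenocytes and fat body were dissected from the dorsal abdomen, which gave 4 groups of 2 libraries each: female oenocytes, male oenocytes, female fat body and male fat body. The labels give the duplicates as numbered libraries and do not say whether they came from separate flies or pools, so p-values measure only the spread between these libraries.

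Odorant-binding proteins are small, soluble, secreted proteins. In the antenna and the taste organs they fill the fluid around sensory neurons, bind hydrophobic odorants and pheromones, and carry them or buffer them near the receptors. Many members of the family in D. melanogaster are also known from tissues with no sensory neurons, among them fat body, the male reproductive tract and glia. Oenocytes make the cuticular hydrocarbons, some of which act as contact pheromones. Fat body is the storage and metabolic tissue of the fly and secretes proteins into the hemolymph.

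Estimated counts came to between 10732070 and 34474092 per library in depth, and reads aligned to genes to between 2275755 and 4642417. The tissue labels were checked with marker genes in TPM, a level corrected for transcript length whose sum over all transcripts is the same in each library. DesatF, a desaturase of the oenocytes, had 2725 and 2544 TPM in female oenocytes, against 30.4 and 25.7 TPM in female fat body. In males it had 145 and 143 TPM in oenocytes, against 4.3 and 4 TPM in fat body. Adh, which is abundant in fat body, had 2536 and 2728 TPM in female oenocytes, against 6548 and 6378 TPM in female fat body. In males Adh had 3405 and 3359 TPM in oenocytes, against 34665 and 32458 TPM in fat body. The second gene found of the oenocyte list, the desaturase Desat1, went the other way. It had 6648 and 6242 TPM in female oenocytes, against 9292 and 8822 TPM in female fat body, and in males 5220 and 5214 TPM in oenocytes, against 12444 and 11117 TPM in fat body. DesatF was thus higher in the oenocyte libraries, while Desat1 and Adh were lower there without being low. The 2 male oenocyte libraries were counted as 1 sample in the tests, because their estimated counts differed by little more than sampling noise over the transcripts matched to a single gene (chi-square 1.08 per degree of freedom). Over all transcripts, which the tests used, they differed by 7.53 per degree of freedom.

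Few members of the family reached a level of 1 TPM. Of the 46 members, 22 were listed at 0 TPM in all 8 libraries (47.8%, against 18.0% of all genes). A further 14 were above 0 in at least 1 library without reaching a group mean of 1 TPM. The remaining 10 had a group mean of 1 TPM or more in at least 1 group (21.7%, against 55.4% of all genes). By chromosome, 3 of the 29 members on 2R reached that level, 5 of the 8 on 3R and 2 of the 5 on X, and neither the 3 members on 3L nor the only one on 2L did.

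The 22 members listed at 0 were Obp19a, Obp28a, Obp46a, Obp47a, Obp47b, Obp50a, Obp50b, Obp50c, Obp50d, Obp56b, Obp56c, Obp56f, Obp56h, Obp57d, Obp57e, Obp58b, Obp58c, Obp58d, Obp59a, Obp69a, Obp84a and Obp99d. Several of these are known for sensory roles. In species of the D. melanogaster group, Obp57d and Obp57e affect the response to the acids of the fruit on which D. sechellia lives. Obp59a serves humidity sensing in D. melanogaster, and Obp56h affects cuticular hydrocarbons and mating there. In the separate alignment 20 of the 22 also had 0 aligned reads in every library, while Obp84a had 8 reads and Obp69a had 1 over all libraries. A count of 0 allows up to 3 reads, which at these depths is 0.646 to 1.32 CPM (reads scaled to a common library total), for counting error only. A level below that could be missed in the aligned reads. The bound does not hold for the TPM, which are taken to come from kallisto.

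The 14 members with traces had a highest value of at most 1.94 TPM in any library. That value was Obp83g in male fat body replicate 2, whose fellow replicate was at 0. Obp49a, known in D. melanogaster for a role in bitter taste, peaked at 1.4 TPM, and Obp8a at 1.25 TPM, both in the same library. Obp76a, the pheromone-binding protein called lush in D. melanogaster, was above 0 in 1 library only, a female oenocyte library with 0.72 TPM. The highest values were 0.59 TPM for Obp56d, 0.54 TPM for Obp56e, 0.39 TPM for Obp57a and 0.32 TPM for Obp56g. They were 0.29 TPM for Obp56i, 0.28 TPM for Obp73a, 0.22 TPM for Obp50e and 0.21 TPM for Obp51a. Obp19c peaked at 0.13 TPM and Obp56a at 0.05 TPM. None of the 9 members numbered 56 and none of the 5 numbered 50 reached a group mean of 1 TPM.

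**Figure D1:**
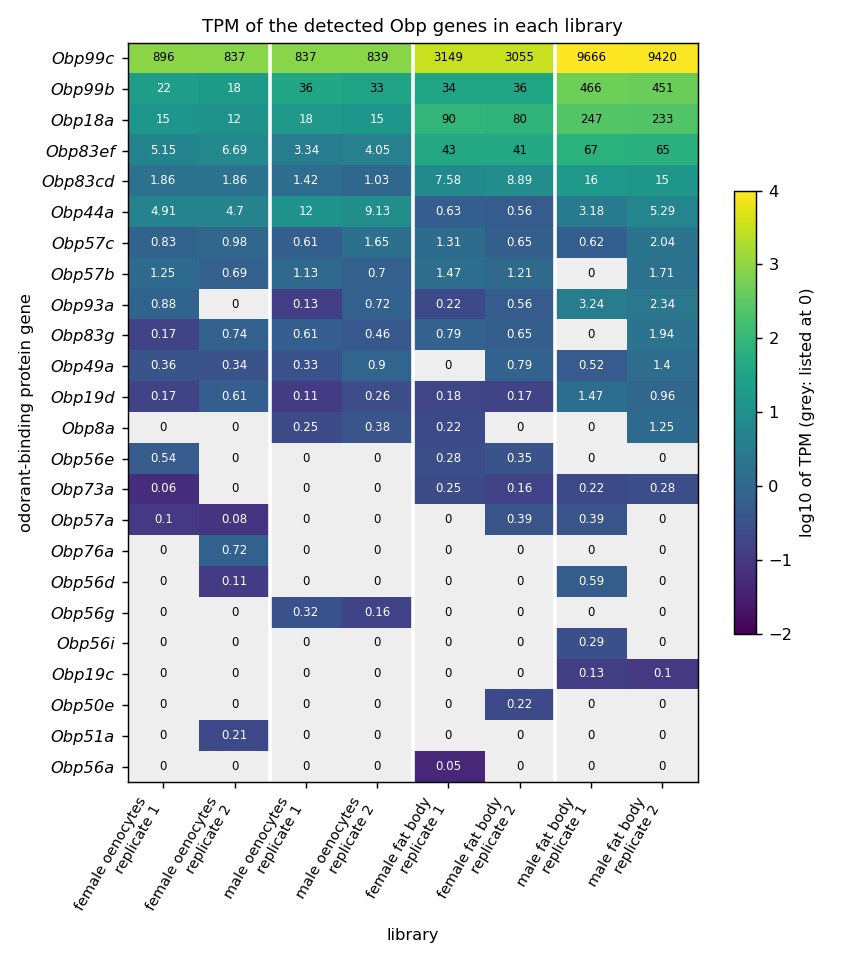
TPM of the 24 Obp genes above 0, 1 row per gene and 1 column per library, with the value printed in each cell and the colour giving its log10. Only Obp99c, Obp99b and Obp18a stayed at 10 TPM or more in all 8 libraries, and the lower rows hold scattered values under 1 TPM beside grey cells listed at 0.

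With Obp99a left out, the family's RNA was almost all Obp99c. This gene on 3R took 91.9% to 94.7% of the summed TPM of the 46 members in every library. The members together summed to 948 and 885 TPM in female oenocytes and to 911 and 906 TPM in male oenocytes. They summed to 3328 and 3227 TPM in female fat body and to 10473 and 10202 TPM in male fat body. That is 0.0885% of all TPM in the lowest library and 1.05% in the highest.

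Obp99c is an odorant-binding protein gene known in D. melanogaster to be expressed outside the sensory organs. It had 896 and 837 TPM in female oenocytes, 837 and 839 TPM in male oenocytes, 3149 and 3055 TPM in female fat body, and 9666 and 9420 TPM in male fat body. Male fat body was highest, female fat body came next, and the oenocytes of both sexes lay below with overlapping values. Among the 14176 genes it ranked between 166 and 169 in oenocytes, 59 and 61 in female fat body, and 8 and 10 in male fat body.

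Obp99b, on 3R as well, is also called turn on sex-specificity in D. melanogaster, where it is known from fat cells of males. It had 21.6 and 18.3 TPM in female oenocytes, 35.6 and 32.7 TPM in male oenocytes, 33.8 and 36.3 TPM in female fat body, and 466 and 451 TPM in male fat body. The male fat body libraries stood far above all others, while male oenocytes and female fat body overlapped.

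Obp18a, on X, had 14.5 and 12.1 TPM in female oenocytes, 17.8 and 14.6 TPM in male oenocytes, 90.1 and 80.4 TPM in female fat body, and 247 and 233 TPM in male fat body. No fat body library overlapped an oenocyte library. In oenocytes both female libraries lay below both male ones, the nearest pair within 0.1 TPM.

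Obp83ef and Obp83cd, both on 3R, belong to the members whose protein carries a pair of fused binding domains in D. melanogaster. Obp83ef had 5.15 and 6.69 TPM in female oenocytes, 3.34 and 4.05 TPM in male oenocytes, 42.8 and 41.0 TPM in female fat body, and 67.3 and 64.98 TPM in male fat body. Obp83cd had 1.86 and 1.86 TPM in female oenocytes, 1.42 and 1.03 TPM in male oenocytes, 7.58 and 8.89 TPM in female fat body, and 15.6 and 14.9 TPM in male fat body. The pair thus shared an order of the groups, with male fat body highest and male oenocytes lowest and no overlap between any groups.

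Obp44a, on 2R, is known in D. melanogaster for its expression in glia. It had 4.91 and 4.7 TPM in female oenocytes, 11.9 and 9.13 TPM in male oenocytes, 0.63 and 0.56 TPM in female fat body, and 3.18 and 5.29 TPM in male fat body. It was the only one of these 6 members whose highest group was an oenocyte group and whose lowest was female fat body.

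The other 4 members with a group mean of 1 TPM or more were near that level. Obp57c had 0.83 and 0.98 TPM in female oenocytes, 0.61 and 1.65 TPM in male oenocytes, 1.31 and 0.65 TPM in female fat body, and 0.62 and 2.04 TPM in male fat body. Obp57b had 1.25 and 0.69 TPM in female oenocytes, 1.13 and 0.7 TPM in male oenocytes, 1.47 and 1.21 TPM in female fat body, and 0 and 1.71 TPM in male fat body. The groups overlapped in both genes, apart from Obp57b in male oenocytes and female fat body. In the separate alignment Obp57b had 0 aligned reads over all libraries and Obp57c had 4. Obp93a had 3.24 and 2.34 TPM in male fat body, against 0 to 0.88 TPM elsewhere. Obp19d, on X, had 1.47 and 0.96 TPM in male fat body, against 0.11 to 0.61 TPM elsewhere. These 2 members had their highest values in male fat body, but each had only 5 aligned reads over all libraries, and edgeR called none of the 4 in the comparisons below. Limma on log2(TPM + 1), with no scaling between libraries, called Obp93a between tissues in males, between sexes in fat body and in the interaction. It called 66.5%, 75.7% and 60.9% of all genes tested in these comparisons, in the same order. Without a filter on low values it called both Obp93a and Obp19d between tissues in males and between sexes in fat body, and Obp19d in the interaction. The shares of all genes were then 47.5%, 49.6% and 38.1%.

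**Figure D2:**
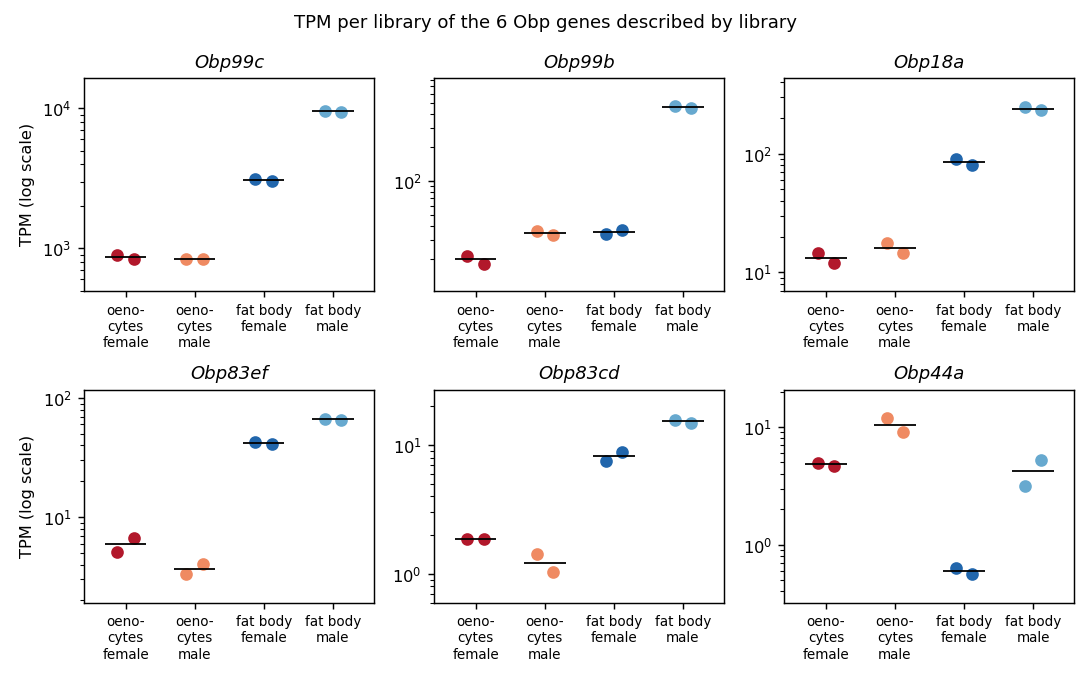
TPM per library on a log axis for the 6 Obp genes with a group mean of 10 TPM or more, with 1 point per library and a line at the mean of each group of 2. In 5 panels male fat body is highest, and in the Obp44a panel both oenocyte groups lie above female fat body.

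Levels were compared on estimated counts with edgeR's quasi-likelihood test, with Benjamini-Hochberg adjustment over all 14279 transcripts tested and a call at an adjusted p under 0.05. Of the 46 members, 12 passed the filter on low counts and 34 were not tested. A member can pass that filter through the group in which it is high, so the counts of members called are a description of these 12 and not of the family. In these bulk samples fewer cells of a type and less RNA per cell cannot be told apart.

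In females, 5 tested members were lower in oenocytes than in fat body and Obp44a was higher, which makes 6 calls of 12, against 26% of all transcripts tested (13.1% lower and 12.9% higher). Obp83ef had a log2 fold change of -3.10 ± 0.193 (SE; adjusted p 0.000386, edgeR) and Obp18a of -2.94 ± 0.117 (adjusted p 9.94e-05). Obp83cd had -2.42 ± 0.352 (adjusted p 0.00753) and Obp99c -2.08 ± 0.0648 (adjusted p 5.10e-05). Obp99b changed least, with -1.05 ± 0.162 (adjusted p 0.00912). Obp44a was higher in oenocytes by 2.78 ± 0.643 (adjusted p 0.0346). This last call was lost without the filter (adjusted p 0.0556) and without each of the 4 female libraries in turn (adjusted p 0.0880 to 0.155). The aligned reads per gene gave the same directions but lost the calls of Obp18a (log2 fold change -1.75, adjusted p 0.0790), Obp83cd (-1.57, 0.169), Obp99b (-1.14, 0.0539) and Obp44a (1.85, 0.141).

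In males the same 5 members were lower in oenocytes than in fat body and none was higher, against a call share of 21.4% over all transcripts (11.3% lower). Obp83ef had a log2 fold change of -3.79 ± 0.267 (SE; adjusted p 0.000705, edgeR), Obp18a of -3.64 ± 0.161 (adjusted p 0.000160) and Obp99b of -3.52 ± 0.229 (adjusted p 0.000532). Obp83cd had -3.37 ± 0.489 (adjusted p 0.00891) and Obp99c -3.23 ± 0.0907 (adjusted p 6.01e-05). On the scale of TPM these are between 11.4-fold lower for Obp99c and 17.9-fold lower for Obp83ef. Obp44a was at 1.44 ± 0.693 (adjusted p 0.252), not past the threshold. Aligned reads lost the call of Obp83cd (-3.04, adjusted p 0.0833).

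Markers of fat body and muscle were read beside these tissue differences. The 3 genes found of the fat body list summed to 38887 to 40140 TPM in female oenocytes, against 93510 to 94815 TPM in female fat body, mostly the yolk protein gene Yp2. In males they summed to 3426 to 3461 TPM in oenocytes, against 32542 to 34720 TPM in fat body, nearly all Adh. Yp2 was lower in oenocytes in females (log2 fold change -1.54 ± 0.274, adjusted p 0.0152, edgeR) and was not called in males (0.22 ± 0.331, adjusted p 0.732). Adh was lower in oenocytes by a log2 fold change of -1.56 ± 0.0774 in females (adjusted p 0.000179) and -2.98 ± 0.109 in males (adjusted p 9.48e-05). Of the muscle list, 3 genes were found, with a summed level of 8.96 to 10.2 TPM in female oenocytes, against 23.4 to 29.7 TPM in female fat body, and of 6.03 to 6.92 TPM in male oenocytes, against 25.6 to 30.1 TPM in male fat body. No hemocyte, neuron, trachea or epidermis symbol of the lists was found. The part that fat body cells in the oenocyte libraries, or muscle, have in the Obp levels was not tested.

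The sexes were compared within each tissue. In oenocytes none of the 12 tested members was called by edgeR, against 2% of all transcripts, and 2 had an unadjusted p under 0.05. Those were Obp99b, with a log2 fold change of females over males of -0.75 ± 0.189 (adjusted p 0.213), and Obp83ef, with 0.60 ± 0.228 (adjusted p 0.452). Taking both male oenocyte libraries as separate samples called Obp99b (-0.75, adjusted p 0.0427), and so did the DESeq2 Wald test (-0.74, adjusted p 0.00394). Obp99c, the dominant member, had 0.04 ± 0.0764 (adjusted p 0.9997).

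In fat body, Obp99b, Obp99c and Obp18a were lower in females than in males, which makes 3 calls, against 6.13% of all transcripts (3.28% lower). Obp99b had the largest of these changes, with a log2 fold change of -3.22 ± 0.169 (SE; adjusted p 0.00263, edgeR). Obp99c had -1.12 ± 0.0629 (adjusted p 0.00308) and Obp18a -0.96 ± 0.109 (adjusted p 0.0145). The call of Obp18a was lost without each of the 4 fat body libraries in turn, at log2 fold changes of -0.94 to -0.98 (adjusted p 0.0764 to 0.109), where 0.887% to 2.18% of all transcripts were called. In addition, aligned reads lost it (-1.09, adjusted p 0.437) and that of Obp99c (-1.19, adjusted p 0.0877). Obp44a had -2.49 ± 0.637 (adjusted p 0.117) and was called by DESeq2 (adjusted p 0.00686).

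**Figure D3:**
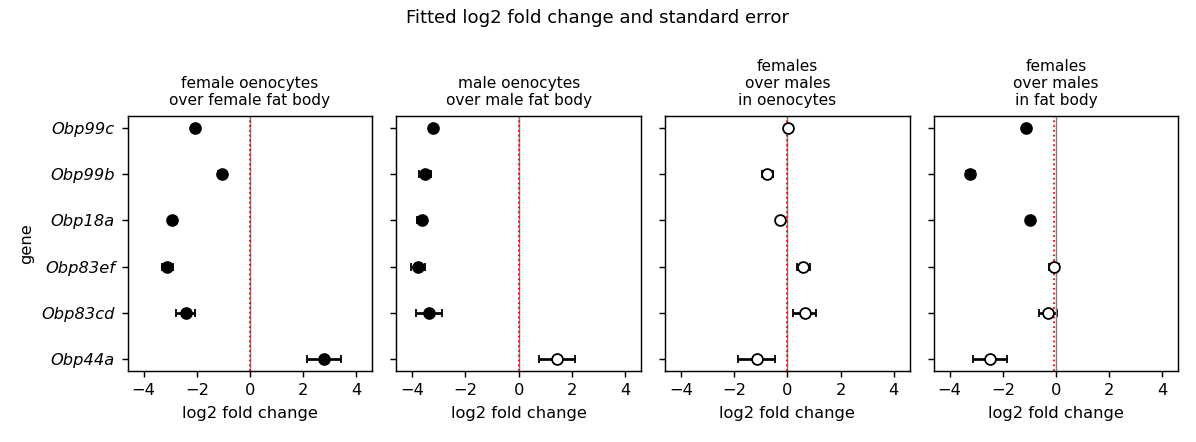
Fitted log2 fold change of 6 Obp genes (rows) in 4 comparisons (panels), with bars for 1 standard error, filled points for calls and open points for values that missed the threshold; the dotted line is the median of all transcripts tested. Both tissue panels have 5 filled points on the side lower in oenocytes, and the panel of sexes in oenocytes has no filled point.

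The scale mattered for Obp83ef and Obp83cd in fat body. On TPM both were lower in females than in males with no overlap. CPM were computed here from the estimated counts and scaled between libraries by TMM, a factor that sets most transcripts level. In CPM Obp83ef had 27.6 and 28.8 in female fat body, against 29.2 and 30.5 in male fat body. Its fitted change was -0.08 ± 0.176 on the log2 scale (adjusted p 0.906). Obp83cd had 5.5 and 7.0 CPM in female fat body, against 7.54 and 7.82 CPM in male fat body, with -0.30 ± 0.332 (adjusted p 0.741). Obp99b kept its difference on this scale, with 10.1 and 12.5 CPM in female fat body, against 103 and 107 CPM in male fat body. Of the counts, 44.7% and 44.9% fell on the 10 most abundant transcripts in female fat body, against 18.1% and 17.6% in male fat body. On the log2(TPM + 1) scale, which has no scaling between libraries, the median gene was shifted by -0.63 between the sexes in fat body. There Obp83ef had -0.65 and Obp83cd -0.82, close to that shift, while Obp99b had -3.67.

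**Figure D4:**
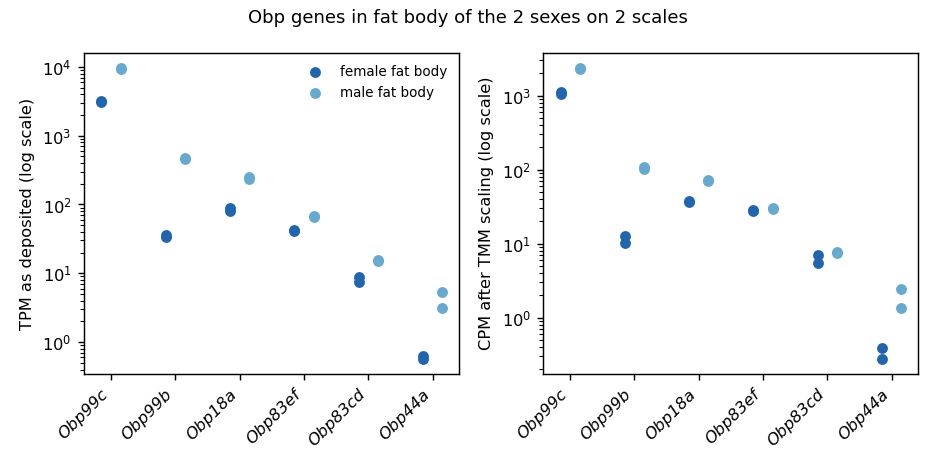
Levels of 6 Obp genes in female and male fat body, 1 point per library, as deposited TPM (left) and as CPM after TMM scaling (right), both on log axes. Obp99b, Obp99c and Obp18a are lower in female fat body on both scales, while the 2 sexes come close together for Obp83ef and Obp83cd on the CPM scale.

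The sex difference itself was tested between the tissues, as the female over male change in oenocytes minus that in fat body. This interaction was called for Obp99b (2.47 ± 0.261 on the log2 scale; adjusted p 0.0298, edgeR) and Obp99c (1.15 ± 0.1004; adjusted p 0.0241), 2 of the 12 tested members, against 2.59% of all transcripts (1.79% in this direction). The median over all transcripts was 0.185. Both calls were lost without each of the 6 libraries other than male oenocytes in turn. Those fits left a group with 1 library and called almost no transcript in the interaction. The values there were 2.32 to 2.64 for Obp99b and 1.11 to 1.20 for Obp99c. Aligned reads lost both as well (adjusted p 0.460 and 0.481), where 0.0809% of all genes were called. Obp18a had 0.71 ± 0.175 (adjusted p 0.164).

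Markers of the male reproductive tract were read beside these sex differences. Of 15 accessory gland genes found, 8 were listed at 0 in all libraries, among them Acp26Aa, Acp36DE and Acp70A. The list summed to 448 to 481 TPM in female fat body, against 689 to 712 TPM in male fat body. Nearly all of that was Acp54A1, whose female over male change in fat body was 0.0041 ± 0.113 on the log2 scale (edgeR, not past the threshold). The 4 testis and ovary genes found summed to 0 to 0.05 TPM in female fat body, against 2.12 to 5.45 TPM in male fat body. Of the fat body list, Adh was lower in females, with a log2 fold change of -1.79 ± 0.0779 (adjusted p 0.00190), while Yp2 was higher in females, by 10.89 ± 0.409 (adjusted p 0.00155). The part of such tissues in the Obp differences was not tested.

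Obp99a, the neighbour in name that is no member here, had the opposite sex difference. It had 720 and 586 TPM in female oenocytes, against 16.3 and 16.8 TPM in male oenocytes. In fat body it had 5051 and 4754 TPM in females, against 252 and 234 TPM in males. Female fat body thus held more RNA of Obp99a than of Obp99c, and male fat body far more of Obp99c.

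Of other genes linked to chemosensation, few could be read beside the family. No chemoreceptor symbol and no other secreted chemosensory protein of the lists was found among the gene names. Os-E and Pbprp3 are odorant-binding protein genes under other symbols, which the rule on names left out of the members. Both were listed at 0 in all libraries. Est-6, a secreted esterase known to degrade odorants and pheromones, was the only gene found of the degradation list. It had 44.3 and 40.1 TPM in female oenocytes, 32.6 and 35.1 TPM in male oenocytes, 125 and 122 TPM in female fat body, and 320 and 287 TPM in male fat body. It was lower in oenocytes than in fat body in females (log2 fold change -1.91 ± 0.0765, adjusted p 9.94e-05, edgeR) and in males (-2.92 ± 0.105, adjusted p 9.43e-05). In fat body it was lower in females than in males (-0.66 ± 0.0740, adjusted p 0.0143). Its order of groups was close to that of Obp83ef, with male fat body highest and male oenocytes lowest.

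In a hybrid the 2 alleles of a gene can be counted in the same cells. The deposited allele tables count reads with the reference allele, read here as D. simulans, and with the alternative allele, read as D. sechellia. Shares are the alternative reads among allele-specific reads, given where a library had at least 20 of them, with exact binomial 95% intervals that cover counting error only. That left 3 members: Obp99c in all groups, Obp18a in both fat body groups and Obp99b in male fat body. Over the autosomes the alternative share was 62.5% to 64.96% per library, so 50% is not the typical value of these tables.

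The alternative share of Obp99c lay on both sides of 50% and differed between replicates. It was 60.2% of 244 reads (interval 53.8% to 66.4%) and 44.4% of 446 reads (39.7% to 49.1%) in female oenocytes. In male oenocytes it was 67.6% of 139 reads (59.2% to 75.3%) and 57.6% of 330 reads (52.0% to 63.0%). In female fat body it was 62.5% of 613 reads (58.5% to 66.3%) and 53.4% of 1087 reads (50.4% to 56.4%). The male fat body libraries had 57.0% of 1579 reads (54.5% to 59.5%) and 51.4% of 4733 reads (50.01% to 52.9%). In 3 of the 4 groups the intervals of the 2 libraries did not overlap, and in male oenocytes they did. The lower library was replicate 2 in every group, and replicate 2 minus replicate 1 ranged over the groups between -15.9 and -5.55 percentage points. In replicate 2 a larger part of the Obp99c reads was allele-specific, 26.7% to 41.3%, against 17.3% to 23.1% in replicate 1, while over all genes that part was 25.4% to 30.4% in replicate 2, against 24.8% to 28.7% in replicate 1. The part of this in the allelic values was not tested.

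Against a ratio of 1, edgeR's quasi-likelihood test on the 7 samples called Obp99c in no group. Its log2 ratio of alternative over reference was 0.11 ± 0.240 in female oenocytes (adjusted p 0.741), and 0.62 ± 0.329 in male oenocytes (adjusted p 0.224). It was 0.46 ± 0.227 in fat body of females (adjusted p 0.110) and 0.24 ± 0.220 in that of males (adjusted p 0.379). Of all genes tested, 36.8%, 14.7%, 37.5% and 45.3% were called in these groups in the same order, with medians of 0.65 to 0.79. With both male oenocyte libraries kept apart it was called there (0.71, adjusted p 0.0323). With each library centred on its median gene the log2 ratio turned negative, to -0.66 in female oenocytes (adjusted p 0.0427), -0.029 in male oenocytes, and in fat body to -0.28 in females and -0.55 in males (adjusted p 0.0566). The kallisto copies, which split the estimated counts by species, gave the D. sechellia copy 55.8% to 61.0% of Obp99c in each library. Tested on these copies, Obp99c was called towards D. sechellia in all 4 groups, with log2 ratios of 0.35 to 0.49. On them 46.2% to 67.5% of all genes were called, with medians of 1.09 to 1.24. Against a ratio of 1 the fitted values of Obp99c were thus above 0 in both measures, but only the copies gave a call in all 4 groups. In the allele reads female oenocytes were near 0 (0.11 ± 0.240). Obp99c was below the median gene in both measures, though barely so for the allele reads in male oenocytes (-0.029 after centring).

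The ratio of Obp99c was also compared between groups. It differed by -0.35 ± 0.330 between oenocytes and fat body in females (adjusted p 0.994) and by 0.38 ± 0.394 in males (adjusted p 0.926). Females minus males gave -0.51 ± 0.407 in oenocytes (adjusted p 0.996) and 0.22 ± 0.315 in fat body (adjusted p 0.99997). Obp99c was the only member that could be tested here and was not called by edgeR in any of the 4 comparisons, nor had it an unadjusted p under 0.05. The shares of all genes called were 0.448%, 0.139%, 0.0382% and 0.0998% in the order given.

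Obp18a was read almost entirely as the reference allele. In female fat body the alternative allele had 6.25% of 32 reads (interval 0.766% to 20.8%) and 0 of 62 reads, which allows a share of up to 4.84%. In male fat body it had 2.63% of 76 reads (0.320% to 9.18%) and 2.34% of 128 reads (0.486% to 6.70%). The log2 ratio in female fat body was -5.31 ± 0.775 (adjusted p 3.14e-06, edgeR), where 3.61% of all genes tested were called towards the reference allele. It was -8.93 without female fat body replicate 1, which left 0 alternative reads in that group so that the value depends on the fit's prior count, and -3.84 without replicate 2, both called (adjusted p 5.55e-05 and 0.0139). Females carry an X of each species, and 0.394% of the 762 X genes with 20 reads in female fat body had a share as low as Obp18a or lower, around a median of 58.8%. Males carry 1 X, so their ratio was not tested, and 6.59% of 835 X genes lay as low there. The X as a whole had 54.0% and 56.8% alternative reads in female fat body, against 24.6% and 22.1% in male fat body. In male oenocytes it had 17.6% and 17.9%. A male X carries the allele of 1 species, so part of these male reads were counted for an allele that is absent. The allelic shares given here are thus shares of reads as classed and can differ from the true species shares. The part of this in the shares of the Obp genes was not tested.

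The reads of Obp18a carried conflicting alleles more often than those of most genes. Of its 554 aligned reads over all libraries 28.7% were of that class, a share reached by 0.531% of 6215 genes, around a median of 3.66%. The kallisto copies of Obp18a were equal in every library and so gave no second measure of its alleles. The part of the conflicting reads in the allelic ratio was not tested.

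Obp99b gave opposite allelic directions in the 2 measures. In male fat body its alternative share was 5.88% of 34 reads (interval 0.720% to 19.7%) and 7.89% of 38 reads (1.66% to 21.4%), with a log2 ratio of -3.70 ± 0.906 (adjusted p 0.00155, edgeR). There 3.36% of all genes tested were called towards the reference allele. Only 6.84% and 7.93% of the reads of the gene in these libraries were allele-specific. Genes entered the fit with at least 20 allele-specific reads in at least 2 samples, which Obp99b no longer met without either of the male fat body libraries, so the ratio was not tested there. The kallisto copies gave the D. sechellia copy 53.3% and 69.5% of the estimated counts in the same libraries, and 59.7% to 85.9% in the other 6. In male fat body this was a log2 ratio of 0.68 (adjusted p 0.0528). No direction is therefore given for the alleles of Obp99b.

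**Figure D5:**
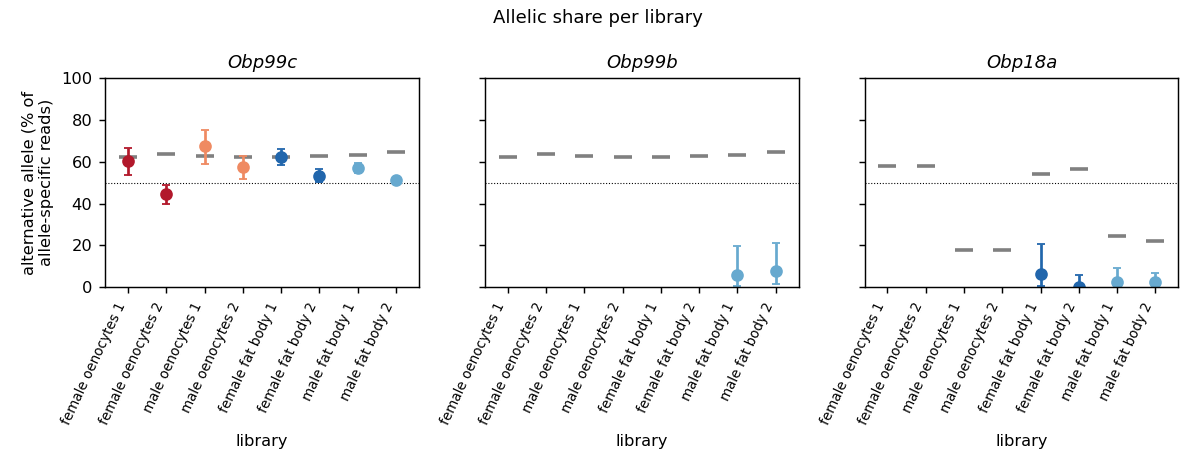
Share of alternative reads among allele-specific reads per library for Obp99c, Obp99b and Obp18a, with exact 95% intervals, shown where there were at least 20 such reads; grey bars give the share over all autosomal genes (X genes for Obp18a) of the same library. Obp99c lies between 44.4% and 67.6%, with replicate 2 below replicate 1 in every group, and Obp99b and Obp18a lie under 10%.

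The other members had too few allele-specific reads for a share. Obp83ef had 50 over all 8 libraries and at most 16 in 1 library, out of 600 aligned reads. Obp83cd had 42, at most 11 in 1 library, and Obp44a had 9. In kallisto the copies of Obp83ef, Obp83cd, Obp57b, Obp57c and Obp93a were equal, so their alleles were not measured there either.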

How the data were processed

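The members and gene lists were chosen with earlier results of these data known. Per the labels' protocols, total RNA of dissected tissue was sequenced in 8 libraries. The submitters' processing notes name kallisto 0.44.0 and STAR 2.5.1b. Their roles, the index, the genome build, the annotation and the treatment of strand are not given in the sources used here. The authors deposited, per the file headers, estimated counts and TPM for D. simulans and D. sechellia copies of 24115 transcripts, a gene table of TPM, and read counts per gene in 4 allele classes. The deposited log2 value of the alleles was recomputed from those counts and was equal to rounding error. The gene TPM are taken to come from another kallisto run than the estimated counts, since 2.18% to 3.55% of transcripts were within 1% of each other. Reference is read as D. simulans because the reference share correlated across autosomal genes with the share of the D. simulans copy (Pearson's r between 0.700 and 0.791 in each library, over at least 410 genes, as a description). No sequence or gene coordinate was used.

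Both copies were summed per transcript and rounded. A gene was matched to a transcript where all 8 TPM values were equal to those of a single transcript, which held for 7776 genes and 19 members; 5 members above 0 were not matched. Chi-square per degree of freedom between replicates was 1.08 in male oenocytes over matched transcripts, against 2.96 to 5.79 in the other groups, so this pair was summed into 1 sample; over all transcripts it was 7.53 and over aligned reads 7.68. This left 7 samples with 3 degrees of freedom for the spread, and male oenocytes, now a lone sample, are taken to vary as the other groups do. edgeR 4.0.16 in R 4.3.3 was run with TMM, filterByExpr, glmQLFit and glmQLFTest, 1 term per group, and for alleles with paired reference and alternative counts of genes with at least 20 allele-specific reads in at least 2 samples and in every sample of a tested group. SE are the log2 value over the root of edgeR's F statistic. Exact permutation of 2 against 2 libraries cannot reach 0.05 and was not used. Members were described by library where called, among the 8 highest by mean TPM or with enough allele-specific reads; all other members are given by range or highest value.

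Alternatives were DESeq2 1.42.0 (test, and size factors in edgeR), limma 3.58.1 on log2(TPM + 1) and log2(TPM + 0.1), no filter, aligned reads, all 8 libraries apart, a replicate block, no top 10 transcripts, other read minimums, centring, leaving out each replicate and, chosen after seeing the data, kallisto copies. On simulated data with 200 changed transcripts, the test of sexes in fat body recovered 68.4% of changes of log2 1 and 82.4% of log2 2 among 14279 transcripts. The allelic test in female fat body recovered 27.3% of changes of log2 1 and 92.9% of log2 2 among 2690 genes. Of the simulated calls 11 of 162 were false in expression and 3 of 70 for alleles. The spread between simulated samples was set and not taken from these libraries, so the shares recovered need not hold for the data.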

Additional observations from a re-analysis of the deposited data

Results flagged for a closer look

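The sex difference of Obp99b differed between the tissues by 2.47 on the log2 scale and that of Obp99c by 1.15 (edgeR's quasi-likelihood test of the interaction, Benjamini-Hochberg adjusted p 0.0298 and 0.0241). In Obp99c the libraries of the sexes overlapped in oenocytes and stood apart in fat body. In Obp99b the libraries of females lay below those of males in both tissues.

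On the TPM scale, every female library of Obp83ef and Obp83cd was above every male one in oenocytes and below every male one in fat body. Neither gene passed edgeR's test between sexes in either tissue. In fat body the fitted changes were -0.08 and -0.30, beside a median of -0.082 over all transcripts in the same fit. The unscaled TPM are another scale, on which the median gene was shifted by -0.63. The interaction was 0.69 for Obp83ef (adjusted p 0.432, edgeR) and 0.95 for Obp83cd (adjusted p 0.588), so neither passed the threshold. Groups of 2 libraries were too small for a check of single outlying libraries.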

How the results depend on the processing

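In the 540 alternatives run in expression for the 6 members described by library, no result past the threshold changed direction. Reversals came in values that had missed it: Obp18a between sexes in oenocytes (0.78) and Obp83ef between sexes in fat body (0.12) with aligned reads, and Obp99c between sexes in oenocytes (-0.0082 to 0.064 over left-out libraries). Aligned reads per gene lost 9 calls and called 2 members between tissues in females, 1 between sexes in fat body and 0 in the interaction. Of all genes they called 28.8%, 1.09% and 0.0809% in the same order. Limma on unscaled TPM called more: 11 between tissues in males without a filter; 3, 3 and 4 between sexes in oenocytes; 7, 6 and 9 between sexes in fat body; and 6, 6 and 7 in the interaction, for log2(TPM + 1), log2(TPM + 0.1) and no filter. These fits called 47.5% of all genes between tissues in males without a filter, 10.2% to 17.4% between sexes in oenocytes, 49.6% to 75.7% between sexes in fat body and 38.1% to 60.9% in the interaction. Between sexes in oenocytes DESeq2 called 1 and all 8 libraries apart called 1, against 9.51% and 6.43% of all transcripts. Leaving out single libraries, which left a group with 1 library, kept all calls between tissues in males. Some of these fits lost the call of Obp44a between tissues in females or that of Obp18a between sexes in fat body. Some lost both calls in the interaction, where they called almost no transcript of any kind.

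For alleles, Obp99c reversed when centred (-0.66 in oenocytes of females and -0.029 in those of males, -0.28 in fat body of females and -0.55 in that of males), and in female oenocytes without replicate 1 (-0.32 to 0.60 over left-out libraries). Its differences between groups reversed to 0.14 between tissues in females without female oenocytes replicate 2 (-0.78 to 0.14), to -0.044 between sexes in fat body without female fat body replicate 1 (-0.044 to 0.49), and with kallisto copies to -0.14 between tissues in males and 0.15 between sexes in oenocytes. Obp99b reversed to 0.68 with kallisto copies. In female oenocytes 1 member of 1 tested was called when centred. In male oenocytes 1 of 1 was called with all libraries apart, against 39.3% of all genes. With kallisto copies 2 members were called in every group but male fat body, of 3 tested in either oenocyte group and 2 in female fat body. The shares of all genes called on these copies are given above with Obp99c. At 50 reads 0 of 1 tested was called in either fat body. Leaving out single libraries gave 0 to 1 in male fat body, since Obp99b then missed the read minimum in 2 samples. The cause of these changes was not tested.

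Members in both libraries of a group at 1 TPM or more numbered 6 in oenocytes of either sex and, in fat body, 6 in females and 7 in males. At 0.1 TPM they were 11 and 14 in oenocytes and 13 and 12 in fat body of females and males, and at 10 TPM 3 in each oenocyte group.

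The replicate numbers were not used to pair the samples in the tests, since deviations in expression correlated at -0.02 to 0.17 between groups. That check did not cover the allelic shares, where Obp99c had replicate 2 below replicate 1 in every group. Whether the replicates were paired cannot be told from it. With a replicate block in the allelic fit, Obp99c was called in male oenocytes (0.75, adjusted p 0.00361, edgeR), the only member tested there. In female fat body both members tested were called, Obp18a and Obp99c (0.47, adjusted p 0.0268). Of all genes 42.6% and 43.5% were called in these groups. In expression 8 members were tested with the block instead of 12, and the counts called were again 6, 5, 0, 3 and 2. Of all transcripts 32.2%, 32.0%, 4.98%, 9.78% and 6.43% were called in the same order. For the alleles, 43 of 46 members had fewer than 20 allele-specific reads in every library.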
